A study of Mus musculus with 18 samples.

Results

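BRD9-NUTM1 (BN1) iLS cells were compared with control iLS cells on day 6 and again on day 14, and each transcript was then tested for whether the BN1 effect differed between the days. Of the 18 libraries of the series, 12 were used, chosen by their labels: 3 control and 3 BN1 libraries on each day. The other 6, of AFF1-NUTM1 cells, entered only 1 alternative fit. All 12 libraries hold RNA of CD45.2+ bone marrow cells of C57BL/6 mice that were isolated by flow cytometry. The labels name no promoter, vector or number of animals. They do not say whether replicates came from separate cultures or animals, so p-values measure only the spread between these libraries, which may be technical. On day 14 the column names of the deposited table begin with a numeric code that the libraries of 1 replicate number share, and the labels do not say what it stands for.

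NUTM1 is a gene normally active in the testis whose protein binds a histone acetyltransferase, and in leukemia it is joined to chromatin or transcription factors such as BRD9. BRD9 is a bromodomain subunit of a SWI/SNF chromatin remodelling complex. Leukemias with rearranged NUTM1 are mostly of the B lineage, and genes of the HOXA cluster, normally active in early progenitors, are often high in them.

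Libraries held 14182539 to 18383449 counts. All 8 B lineage markers were above 1 CPM in every library, where CPM, counts per 1e6 counts scaled by TMM over the 12 libraries, is the level used throughout. Their summed level was 5307 to 6813 CPM in control and 7192 to 7518 CPM in BN1 libraries on day 6, and 6258 to 8807 against 9043 to 10586 CPM on day 14. That of 6 T and NK markers was 79.0 to 113 against 141 to 159 CPM on day 6 and 159 to 187 against 142 to 149.9 CPM on day 14, so that its order turned. Lck made up most of that sum, and of the other markers Nkg7 and Klrd1 were higher in BN1 libraries on day 14. For 6 myeloid markers the groups overlapped on day 6, at 49.2 to 150.0 CPM, and lay at 16.6 to 37.1 against 38.9 to 67.6 CPM on day 14. For 4 erythroid markers they lay at 0.1 to 0.258 against 0.284 to 0.41 CPM on day 6 and overlapped on day 14, at 1.04 to 9.13 CPM. Groups overlapped on both days for 4 dendritic (0 to 0.644 CPM), 3 megakaryocyte (0 to 0.515 CPM) and 5 stromal markers (2.93 to 27.1 CPM). The part of these levels in the results was not tested. In these bulk samples, fewer cells of a type and less RNA per cell cannot be told apart. Mouse Nutm1 was below the filter on low counts. Brd9 did not pass the test on either day, with log2 fold changes of -0.02 ± 0.11 and 0.13 ± 0.11 (SE), and the deposited table does not separate reads of the fusion from reads of Brd9.

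The days differed in more than time. The first principal component, with 56.3% of the variance, separated them. Xist, the RNA that coats the inactive X chromosome, lay at 0.0563 to 0.227 CPM in the 6 day 6 libraries and at 265 to 511 CPM in the 6 day 14 libraries. Y-linked Ddx3y lay at 80.2 to 120.4 CPM and at 0 to 0.0615 CPM. Control and BN1 libraries shared this shift. A change of the BN1 effect with time thus cannot be told apart from separate experiments or from the sex of the cells. X-linked genes were 2.88% of the tested genes placed on the genome and 3.67% of those whose effect differed between the days.

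Genes such as Gnb4, Lin28b and Eci2 differed between BN1 and control cells on day 6 and were not called on day 14. The effects of fewer genes, such as Auts2, were called on day 14 alone, and those of some, such as Dpp4 and Cxcr5, turned in direction. BN1 and control differed in 929 of 12288 tested genes on day 6 (7.56%; 489 or 3.98% higher and 440 or 3.58% lower in BN1) and in 603 on day 14 (4.91%; 256 or 2.08% higher and 347 or 2.82% lower), at an adjusted p under 0.05 in edgeR's quasi-likelihood test. The BN1 effect itself differed between the days in 327 genes (2.66%). It was higher on day 14 in 214 of them (1.74% of tested genes) and lower in 113 (0.92%), and by over 2-fold in 290. Over the 929 genes called on day 6, the median size of the log2 fold change was 1.37 on day 6 and 0.41 on day 14. Over the 603 called on day 14 it was 0.77 on day 14 and 0.33 on day 6. In both, the call of 1 day chose the genes, so the smaller value of the other day is no finding. Of the day 6 calls 641 (69.0%) had the same sign on day 14, and of the day 14 calls 491 (81.4%) had the same sign on day 6, against 66.2% of all tested genes. Across genes, which are not independent replicates, Pearson's r between the effects of the 2 days was 0.216 over all genes and 0.292 over the day 6 calls.

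**Figure D1:**
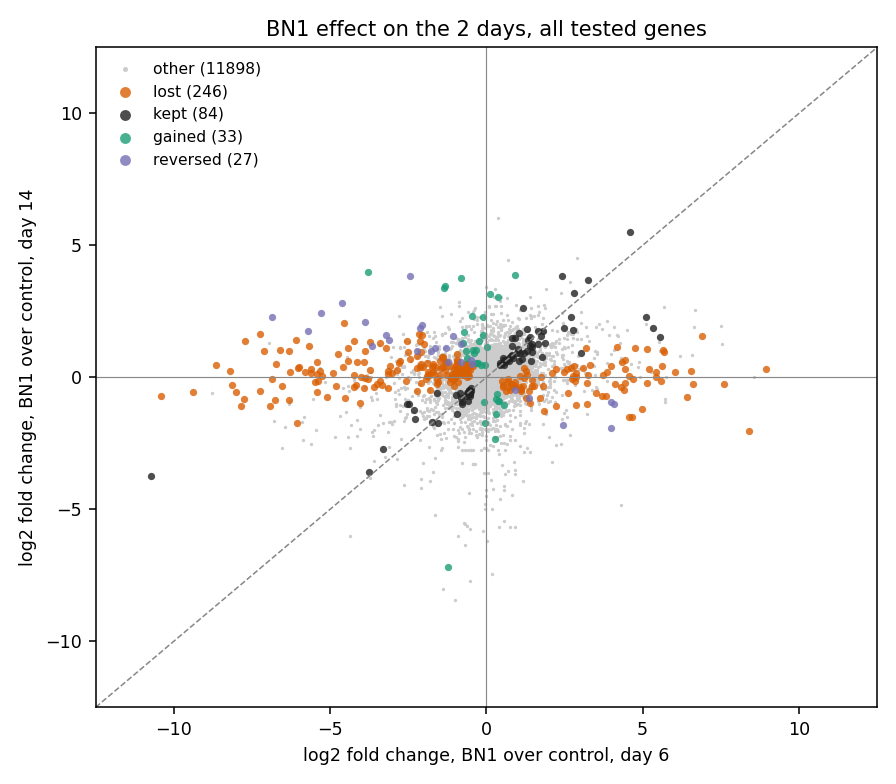
Log2 fold change of BN1 over control cells on day 6 (x axis) and on day 14 (y axis) for the 12288 tested genes, 1 point each, coloured by class, with a dashed line of equal effects. The 246 lost effects lie along the x axis, the 84 kept effects mostly near the dashed line, and the 27 reversed effects in the upper left and lower right parts of the plot.

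Genes were sorted into 4 classes by these 3 tests. A kept effect was called on both days in 1 direction. A lost effect was called on day 6 and not on day 14, and a gained effect on day 14 and not on day 6, each with the difference between the days called as well. A reversed effect was called on both days in opposite directions, with the difference called. In the fit without the replicate numbers there were 246 lost (2% of tested genes), 84 kept, 33 gained (0.269%) and 27 reversed effects (0.22%). Of the kept effects 77 (0.627%) had no called difference and 7 (0.057%) were weaker on day 14. In shares of the calls, 26.5% of the day 6 calls were lost and 9.04% kept. Kept effects were 13.9% and gained effects 5.47% of the day 14 calls. Another 572 genes (4.65%) were called on day 6 only and 459 (3.74%) on day 14 only without a called difference, so neither kept nor lost nor gained can be said of them. In 14 more genes (0.114%) the difference alone was called, with opposite signs on the 2 days.

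The size of the classes depended on the fit. The main fit shares 1 spread per gene between the days. The median SD of log2 CPM about the group means was 0.178 on day 6 and 0.238 on day 14. With a spread per day, limma voom called 1632 genes on day 6 and 12 on day 14, against 929 and 603 here. The numbers of calls on the 2 days thus cannot be set against each other. Equal replicate numbers were taken as pairs of control and BN1 libraries, which is less certain for day 6. With the number as a block 606 differences (4.93%), 1567 day 6 effects (12.8%) and 2025 day 14 effects (16.5%) were called. The 606 held 317 of the 327, all with the same sign. There were then 362 lost, 433 kept, 128 gained and 70 reversed effects. Of the day 6 calls of the blocked fit 27.6% were kept and 23.1% lost. Kept effects thus outnumbered lost ones there, the other way round from the fit without the block. Day 14 calls crowded the threshold: 468 of the 603 had an adjusted p of 0.04 or more, and 356 further genes were under 0.06. Leaving out 1 library moved the day 14 calls from 34 (without control 3 of day 14) to 1693 (without control 2 of day 14). Kept effects then ranged from 8 to 255 (without control 1 and control 3 of day 6), gained effects from 7 (without BN1 1 of day 6) to 75 (without control 2 of day 14), and reversed effects from 1 to 34 (without control 1 and control 3 of day 6). The lost effects numbered 188 to 331 over the same fits. Since a lost effect needs a missing day 14 call, a fit with few day 14 calls keeps this number up, and its narrower range does not show a stable class. In the 21 alternative fits and in the 6 blocked fits without 1 pair, all 327 differences had the sign they have here. These fits reuse the libraries in which the 327 were called, so a change of sign was unlikely from the start. The shared sign is no separate evidence.

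**Figure D2:**
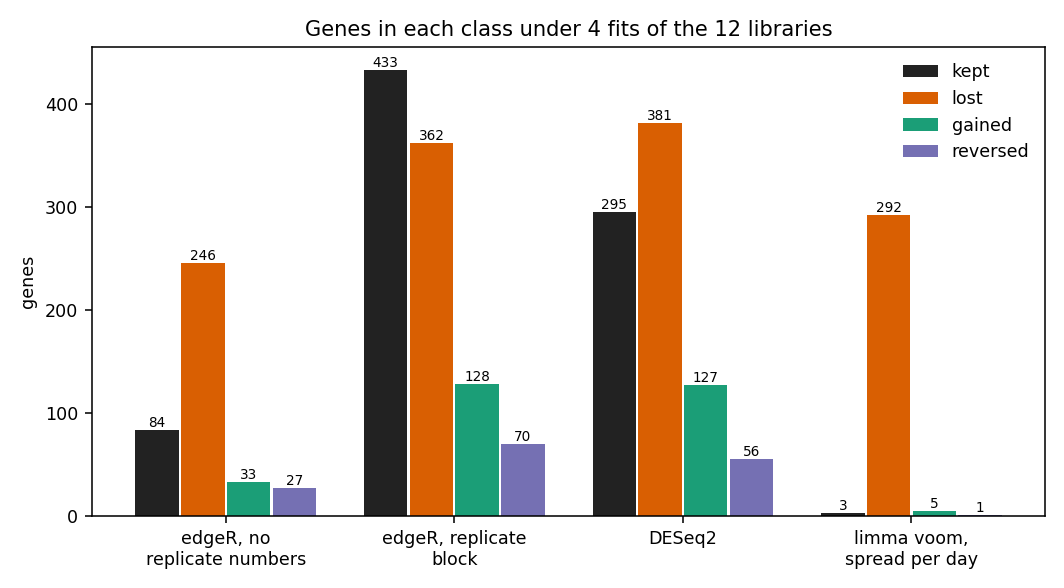
Number of genes (y axis) in each of the 4 classes under 4 fits of the same 12 libraries (x axis), 1 bar per class. Lost effects number 246 to 381 in the 4 fits, while kept effects range from 3 with limma voom to 433 with the replicate block. A lost effect needs a missing day 14 call, so few day 14 calls do not lower its number.

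Lost effects that were high in BN1 on day 6 included that of Gnb4 (mm10 chr3:32580332-32616585), a G protein beta subunit. It lay at 0.113, 0 and 0.151 CPM in control and at 47.1, 49.1 and 52.9 CPM in BN1 libraries on day 6, and at 18.3, 2.71 and 4.37 CPM in control and 13.4, 5.31 and 12.7 CPM in BN1 libraries on day 14. The groups were far apart on day 6 and overlapped on day 14, when Gnb4 was present in both kinds of cell. The log2 effect was 8.94 ± 1.02 (SE) on day 6 and 0.31 ± 0.61 on day 14, a difference of -8.64 ± 1.23 (adjusted p = 0.00406).

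Lin28b (chr10:45376620-45486395), an RNA-binding protein of fetal progenitors that blocks let-7 processing, took another course. Its day 6 levels were 0.113, 0.193 and 0.251 CPM in control and 17.9, 19.5 and 17.3 CPM in BN1 libraries, and its day 14 levels 0.243, 0.553 and 0.336 and 0, 0.610 and 0.742 CPM. BN1 cells thus held it at high levels on day 6 alone, and the day 14 groups overlapped at under 1 CPM. The difference between the effects was -6.30 ± 0.97 (adjusted p = 0.00305). Between the days the level differed by -5.32 ± 0.58 in BN1 cells (adjusted p = 2.58e-05) and by 0.98 ± 0.78 in control cells (adjusted p = 0.325).

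Acsf2 (chr11:94557102-94601871), a mitochondrial acyl-CoA synthetase, was 47.8-fold higher in BN1 than in control cells on day 6, with 84.2, 90.5 and 80.4 CPM against 1.91, 1.42 and 1.96 CPM. By day 14 the groups overlapped, with 6.84, 10.0 and 22.5 CPM in BN1 and 12.0, 9.10 and 22.5 CPM in control libraries. Its control level rose between the days and its BN1 level fell, and the effects differed by -5.73 ± 0.64 (adjusted p = 0.000786). Pafah1b3, a catalytic subunit of a platelet-activating factor acetylhydrolase, rose in both kinds of cell: its means were 0.410 ± 0.0925 and 17.9 ± 1.67 CPM (SD, n = 3) in control and BN1 cells on day 6, and 73.2 ± 43.1 and 74.1 ± 39.0 CPM on day 14 (difference of the effects -5.39 ± 0.85, adjusted p = 0.00719).

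Car2, a carbonic anhydrase of erythroid and other cells, was 31.4-fold higher in BN1 cells on day 6, at 24.8, 25.9 and 25.8 CPM against 0.844, 0.644 and 0.903 CPM. Its control libraries of day 14, at 10.7, 53.3 and 64.9 CPM, overlapped the BN1 libraries, at 21.4, 9.70 and 25.2 CPM. The effects differed by -6.17 ± 0.89 (adjusted p = 0.00406). It was not called with the replicate block (adjusted p = 0.0694).

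Hoxa9 (chr6:52223100-52231089), a homeobox factor of early progenitors, had 0.338, 0.129 and 0.251 CPM in control and 15.3, 15.6 and 7.32 CPM in BN1 libraries on day 6, and 2.19, 0.246 and 0.873 CPM against 1.21, 1.53 and 3.71 CPM on day 14. Its day 6 groups were apart and its day 14 groups overlapped, with a difference of -4.72 ± 0.98 (adjusted p = 0.024). The call for Hoxa9 ended without any 1 of 7 libraries (control 1, 2 or 3 or BN1 1 or 2 of day 6, and BN1 1 or 2 of day 14; adjusted p 0.057 to 0.0774). That for Tmem132e, a membrane protein with a difference of -6.06 ± 1.32, ended without any 1 of 10 (all but control 1 and BN1 3 of day 14; adjusted p 0.0503 to 0.0996). Lck, a kinase best known from T cells, had a small lost effect, at 63.0, 60.0 and 64.8 against 86.8, 102 and 81.0 CPM in control and BN1 libraries on day 6 and 151, 149 and 181 against 126, 121 and 128 CPM on day 14 (difference -0.88 ± 0.15, adjusted p = 0.00713). Its groups were apart on both days and in turned order, but the day 14 effect of -0.36 ± 0.11 was not called (adjusted p = 0.0659), and in 3 of the 21 alternative fits Lck was a reversed effect. Lck makes up most of the summed level of the 6 T and NK markers, so the turn of that sum repeats its own. Of the other markers, Nkg7 (7.83, 6.27 and 5.04 against 17.1, 10.9 and 14.7 CPM) and Klrd1 (0.728, 3.26 and 1.48 against 6.60, 9.88 and 4.58 CPM) were higher in BN1 than in control libraries on day 14. Cd3e, Cd3d and Bcl11b were at most 0.115 CPM in any library.

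The lost effects that were low in BN1 on day 6 were led by genes nearly silent in those libraries. Eci2 (chr13:34977748-35027096), an enzyme that moves double bonds during the oxidation of unsaturated fatty acids, lay at 21.2, 22.2 and 24.8 CPM in control and at 0.0513, 0.0574 and 0.114 CPM in BN1 libraries on day 6. Its day 14 levels were 17.6, 29.0 and 32.6 CPM in control and 20.0, 22.9 and 22.4 CPM in BN1 libraries. The BN1 libraries went from 4 reads in all to 1068, and the groups then overlapped. The effect was -8.14 ± 0.35 on day 6 and -0.28 ± 0.19 on day 14, a difference of 7.86 ± 0.42 (adjusted p = 1.62e-06).

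Nxt2, a cofactor of messenger RNA export, followed the same course, with 6.70, 6.89 and 8.03 CPM in control and 0.103, 0.0574 and 0 CPM in BN1 libraries on day 6. Both kinds of library overlapped at 5.31 to 8.29 CPM on day 14. Only 3 reads were counted in the BN1 libraries of day 6, which puts control at 132 times BN1 there, with a 95% counting interval of 44.8 to 642. The effects differed by 6.80 ± 0.55 (adjusted p = 2.98e-05).

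Zfp267, a zinc finger gene, had no read in the 3 BN1 libraries of day 6 and 8.50, 9.92 and 11.1 CPM in controls, so that control was at least 179.9-fold higher, taking 3 reads over the group as the floor. Its day 14 groups overlapped, at 3.88, 0.984 and 1.95 CPM in control and 0.848, 1.40 and 1.98 CPM in BN1 libraries. Its fitted difference, 9.70, depends on the prior count and is no bound (adjusted p = 0.000986). Zinc finger genes such as Zfp267 have close copies between which reads can be split, so its level is uncertain.

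Itm2a, a membrane protein of lymphoid and other cells, had means of 14.3 ± 1.93 CPM in control and 0.122 ± 0.164 CPM in BN1 cells on day 6, and of 4.67 ± 3.06 and 6.62 ± 2.74 CPM on day 14 (difference 7.23 ± 0.95, adjusted p = 0.0014). AI661453 had 12.3 ± 3.18 and 0.224 ± 0.340 CPM on day 6 and 3.44 ± 1.62 and 7.77 ± 4.19 CPM on day 14 (difference 6.84 ± 0.98, adjusted p = 0.00254). Both were near silent in BN1 cells on day 6 alone. Card9, an adaptor of innate immune signalling, had 22.3 ± 1.70 and 0.834 ± 0.240 CPM on day 6, and 3.14 ± 1.19 and 5.85 ± 1.04 CPM on day 14, when BN1 had the higher mean. Its difference was 5.63 ± 0.40 (adjusted p = 1.14e-05), and with the replicate block its day 14 effect of 0.93 was called too (adjusted p = 0.0448), which makes it a reversed effect there.

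**Figure D3:**
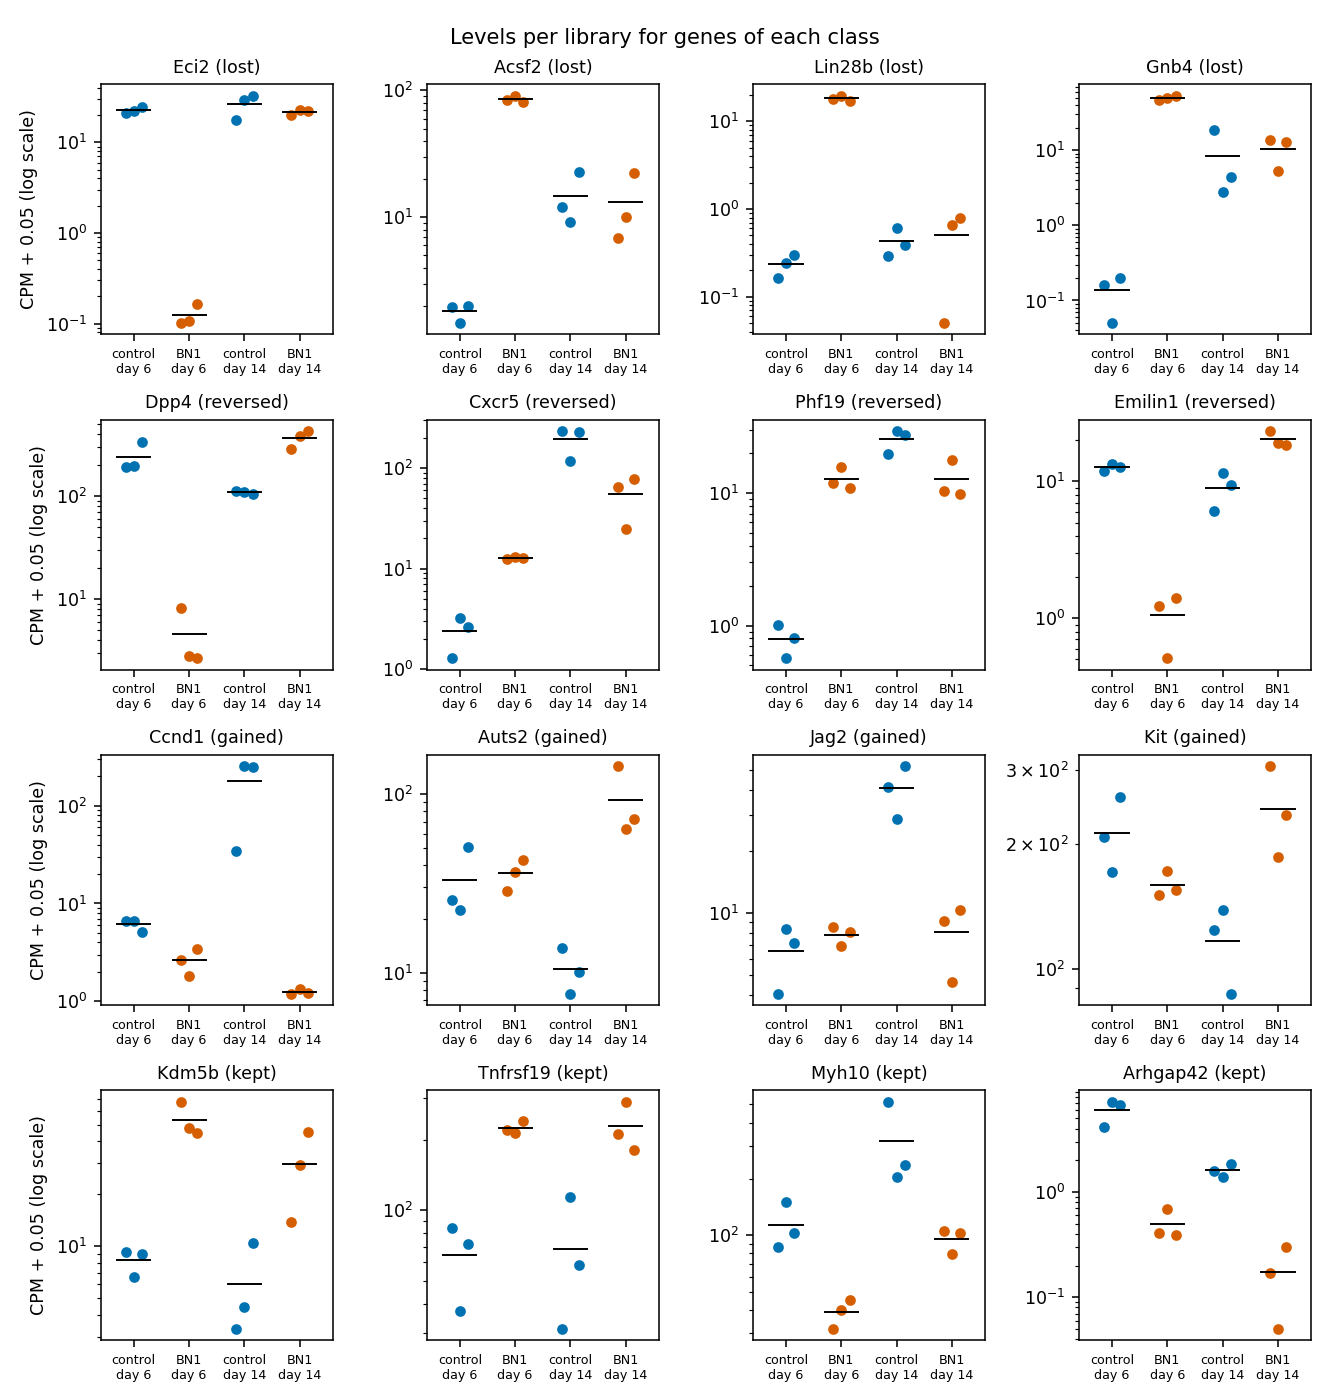
CPM + 0.05 per library on a log axis (y) in control (blue) and BN1 (orange) cells of each day (x), 4 genes per class, with a line at the mean; a library with no read sits at 0.05. In the lost genes of the top line the day 6 groups are apart and the day 14 groups overlap, in the reversed genes their order turns, and in the kept genes it is the same on both days.

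In most lost effects the group that was low on day 6 was higher on day 14. The day 14 effect, which was not called, had the opposite sign of the day 6 effect in 162 of the 246 (52 of the 90 that were high and 110 of the 156 that were low in BN1 on day 6), and in 58 of the 246 the day 14 groups did not overlap. Of the 90 lost effects that were high in BN1 on day 6, control cells were higher on day 14 than on day 6 in 82 and BN1 cells lower in 35, with both in 27. In 44 only the control level was called between the days and in 7 only the BN1 level. Of the 156 that were low in BN1 on day 6, BN1 cells were higher on day 14 in 140 and control cells lower in 56, with both in 40. In 80 of them only the BN1 level was called between the days and in 16 only the control level. A level that was not called may still have changed. Over all tested genes the level in control cells was called between the days in 43.6% (22.6% higher and 21% lower on day 14) and that in BN1 cells in 48.2% (23.8% higher and 24.4% lower). The counts describe the class and are no separate evidence, because the same levels placed the genes in it. In the median lost gene that was high in BN1 on day 6, the control level differed between the days by 2.44 and the BN1 level by -0.53 on the log2 scale. In the median lost gene that was low in BN1, these were -0.34 and 2.29.

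**Figure D4:**
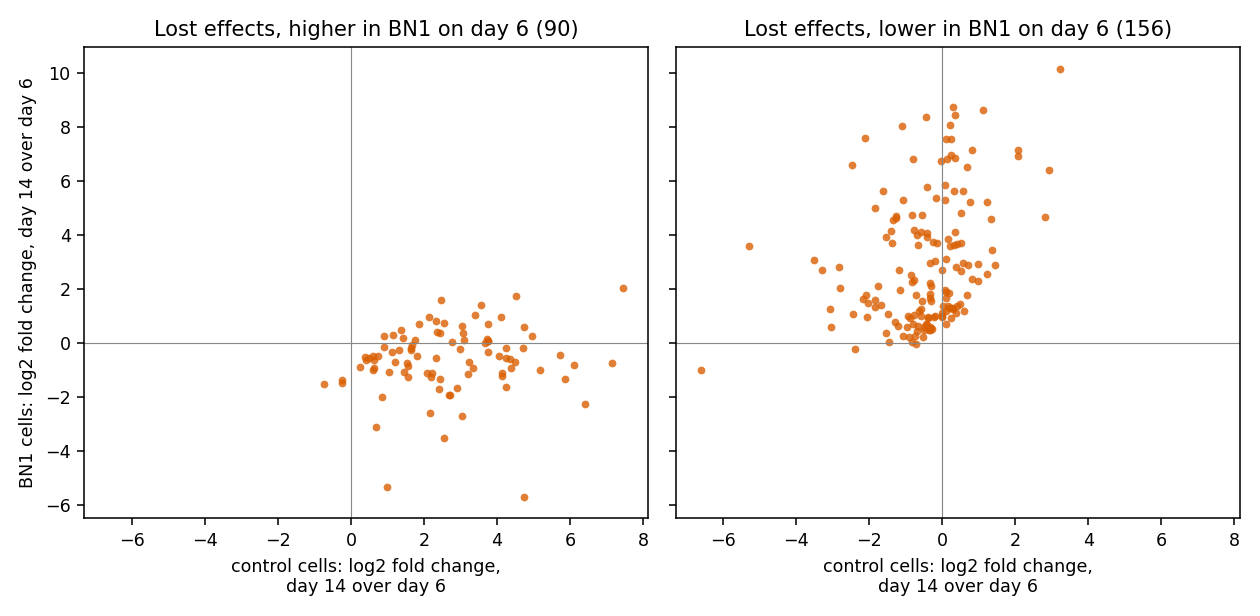
Log2 fold change from day 6 to day 14 in control cells (x axis) and in BN1 cells (y axis) for the lost effects, 1 point per gene, with the 90 that were higher in BN1 on day 6 in one panel and the 156 that were lower in the other. The first lie mostly to the right of 0 and the second mostly above 0, which are higher day 14 levels of the group that was low on day 6.

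Of the lost effects named above and below, the class held in all 21 alternative fits for Gnb4, Lin28b, Acsf2, Eci2, Nxt2, Zfp267, Itm2a, AI661453 and Slc25a20. It held in 20 for Pfkp, 19 for Pafah1b3, 18 for Card9, 17 for Car2, 15 for Lck, 11 for Hoxa9, 10 for Decr1 and 8 for Tmem132e.

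Near on-off patterns of day 6 did not recur on day 14. With off set below 0.5 CPM and on at 5 CPM or more in the group means, limits chosen after the data were seen, 18 genes were on in BN1 and off in control cells on day 6 and 25 the other way round. None of these had the same pattern on day 14. Of the 18, 13 were lost effects, and on day 14 both groups were on in 5 and both off in 3. Of the 25, 16 were lost effects, and both groups were on in 10 and both off in 2. On day 14, 8 genes were off in BN1 and on in control cells and 0 the other way round. Of these 8, both groups were on in 6 and off in 2 on day 6, and the difference between the days was called in 0.

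Reversed effects, 21 of which went from lower in BN1 on day 6 to higher on day 14 and 6 the other way, included those of Dpp4, Cxcr5 and Phf19. In all 27 the control and BN1 libraries did not overlap on either day, which held for 33.4% of all tested genes on day 6 and for 27.2% on day 14. Since the calls of both days chose these genes, nothing is read from that. Dpp4 (CD26, chr2:62330073-62412231), a membrane peptidase that trims chemokines, lay at 191, 196 and 331 CPM in control and at 8.21, 2.76 and 2.61 CPM in BN1 libraries on day 6, and at 112, 108 and 104 CPM in control and 284, 381 and 424 CPM in BN1 libraries on day 14. BN1 cells were 52.4-fold lower on day 6 and 3.36-fold higher on day 14, a difference of 7.46 ± 0.57 (adjusted p = 7.3e-05). The day 14 effect, 1.75 ± 0.36, passed more narrowly (adjusted p = 0.0437).

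Cxcr5 (chr9:44511787-44561877), the receptor that guides B cells into follicles, turned the other way. It lay at 1.24, 3.22 and 2.61 CPM in control and at 12.4, 13.0 and 12.7 CPM in BN1 libraries on day 6, and at 232, 117 and 230.4 CPM in control and 64.8, 24.7 and 77.2 CPM in BN1 libraries on day 14. The level rose between the days in both kinds of cell and more so in control cells, so that the order turned, with effects of 2.44 ± 0.49 and -1.80 ± 0.41 and a difference of -4.24 ± 0.64 (adjusted p = 0.00553).

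Phf19 (chr2:34893757-34914026), a Polycomb-like subunit that brings PRC2 to chromatin, lay at 0.957, 0.515 and 0.753 CPM in control and at 11.9, 15.6 and 10.9 CPM in BN1 libraries on day 6. Its BN1 libraries of day 14 were in much the same range, at 10.3, 17.7 and 9.84 CPM, while control libraries had 19.5, 29.3 and 27.4 CPM. The effect went from 4.08 ± 0.32 to -1.01 ± 0.25 (difference -5.09 ± 0.41, adjusted p = 2.98e-05). Between the days the level rose by 5.07 ± 0.32 in control cells (adjusted p = 6.29e-07) and differed by -0.02 ± 0.25 in BN1 cells (adjusted p = 0.954).

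Among the other genes that turned from lower to higher, Steap4, a metalloreductase, had 5.07 ± 2.08 and 0.194 ± 0.206 CPM in control and BN1 cells on day 6 and 0.672 ± 0.127 and 4.74 ± 2.70 CPM on day 14 (difference 7.43 ± 0.99, adjusted p = 0.00115). Cysltr1, a leukotriene receptor, had 3.15, 1.22 and 2.21 CPM in control and 0.667, 0.172 and 0.341 CPM in BN1 libraries on day 6 and 0.546, 0.430 and 0.739 and 3.51, 11.4 and 10.1 CPM on day 14 (difference 6.30 ± 0.80, adjusted p = 0.000786). In both, the mean of control cells was lower and that of BN1 cells higher on day 14. Emilin1, an extracellular matrix glycoprotein, had 11.8, 13.3 and 12.8 against 1.18, 0.460 and 1.36 CPM on day 6 and 6.01, 11.4 and 9.34 against 23.3, 19.1 and 18.5 CPM on day 14 (difference 4.83 ± 0.43, adjusted p = 6.44e-05). Rpgr, a protein of the cilium, and Cdc42bpg, a kinase downstream of Cdc42, turned in the same direction with differences of 4.83 ± 0.66 and 4.52 ± 0.41 (adjusted p = 0.00122 and 8.01e-05).

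The other genes that turned from higher to lower were Tenm4, Zfp827, Nme4 and Ivd. Tenm4, a teneurin of the cell surface, had 0.486 ± 0.208 and 7.57 ± 0.979 CPM in control and BN1 cells on day 6 and 20.2 ± 4.01 and 5.28 ± 4.49 CPM on day 14 (difference -5.91 ± 0.79, adjusted p = 0.00158). With the replicate block its day 14 effect missed the threshold (adjusted p = 0.0564), so that it was a lost effect there. Zfp827, a zinc finger gene, had 0.581 ± 0.0838 and 9.35 ± 0.901 CPM on day 6 and 4.93 ± 0.80 and 2.61 ± 0.487 CPM on day 14 (difference -4.91 ± 0.35, adjusted p = 1.14e-05). Ivd, an enzyme of leucine breakdown, had a smaller effect with little spread: 31.7, 31.4 and 30.0 CPM in control and 61.8, 57.7 and 56.1 CPM in BN1 libraries on day 6, and 58.1, 42.4 and 46.1 and 34.3, 36.4 and 33.8 CPM on day 14. Its difference was -1.40 ± 0.17 and that of Nme4, a mitochondrial nucleoside diphosphate kinase, -2.16 ± 0.29 (adjusted p = 0.00048 and 0.00115).

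The class of these 12 genes moved with the fit. In the 21 alternative fits the class was reversed in 16 for Cysltr1, 11 for Dpp4 and Emilin1, 10 for Steap4 and Cdc42bpg, 9 for Phf19, Nme4 and Ivd, 8 for Cxcr5 and Rpgr, 7 for Zfp827 and 5 for Tenm4. In the others it was lost, except that Cysltr1 was gained in 4 and Cxcr5 in 2 was in none of the 4 classes. The difference between the days stayed called in all 21 for 11 of them. For Cxcr5 it was not called without the day 6 libraries numbered 3 (adjusted p = 0.0587).

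Gained effects were few and were led in the downward direction by Ccnd1 (chr7:144929931-144939925), cyclin D1, which drives cells from G1 into S phase. It lay at 6.58, 6.57 and 5.07 CPM in control and at 2.62, 1.78 and 3.41 CPM in BN1 libraries on day 6, and at 34.5, 251 and 245 CPM in control and 1.15, 1.28 and 1.18 CPM in BN1 libraries on day 14. The groups did not overlap on either day, but BN1 was 146-fold lower on day 14 and 2.32-fold lower on day 6 (effects -7.19 ± 0.78 and -1.22 ± 0.67, difference -5.97 ± 1.00, adjusted p = 0.012). Control cells rose between the days by 4.86 ± 0.66 on the log2 scale, with control 1 of day 14 well below the other 2. The difference was not called by limma voom with a spread per day (adjusted p = 0.268), nor by edgeR without the day 6 libraries numbered 3.

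Jag2, a Notch ligand, lay at 4.00, 8.31 and 7.07 CPM in control and 8.51, 6.84 and 8.00 CPM in BN1 libraries on day 6, and at 41.3, 28.7 and 51.8 CPM in control and 9.08, 4.58 and 10.3 CPM in BN1 libraries on day 14 (difference -2.62 ± 0.46, adjusted p = 0.00892). Its groups overlapped on day 6 alone, and between the days it rose in control cells (2.65 ± 0.34, adjusted p = 0.000102) while BN1 cells differed by 0.04 ± 0.33 (adjusted p = 0.934).

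Auts2 (chr5:131437333-132543344), a factor that links a Polycomb complex to gene activation, lay at 25.5, 22.4 and 50.3 CPM in control and at 28.7, 36.4 and 42.7 CPM in BN1 libraries on day 6. Its day 14 levels were 13.6, 7.56 and 10.1 CPM in control and 142, 63.4 and 72.6 CPM in BN1 libraries. The groups overlapped on day 6 and were 8.91-fold apart on day 14 (difference 3.02 ± 0.55, adjusted p = 0.0151). The call ended narrowly without BN1 1 or BN1 2 of day 6 (adjusted p 0.0502 and 0.0507).

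Kit (chr5:75574916-75656722), the receptor of stem cell factor, lay at 207, 171 and 259 CPM in control and 151, 172 and 155 CPM in BN1 libraries on day 6 and at 124, 138 and 87.2 CPM in control and 306, 185 and 234 CPM in BN1 libraries on day 14. BN1 libraries were on the low side on day 6, overlapping control, and all above control on day 14. The effects of -0.42 ± 0.21 and 1.05 ± 0.21 differed by 1.47 ± 0.30 (adjusted p = 0.0184), a call that ended without BN1 1 or BN1 3 of day 6 (adjusted p 0.0555 to 0.0637). Kit was a gained effect in 10 of the 21 alternative fits, and in 8 the difference was called and the effect of neither day.

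Of the other gained effects upward, Zfp709, a zinc finger gene, had 12.8 ± 3.18 CPM in BN1 and 0.80 ± 0.648 CPM in control cells on day 14 and at most 0.151 CPM in any day 6 library (fitted difference 7.78, adjusted p = 0.0288). Smoc1, a secreted matrix protein, had 7.52 ± 2.88 against 0.722 ± 0.312 CPM on day 14 and 0.305 ± 0.217 against 0.80 ± 0.558 CPM on day 6 in BN1 and control cells (4.74 ± 0.95, adjusted p = 0.0159). Eya1, a phosphatase and transcriptional cofactor, had 8.17 ± 2.33 against 0.726 ± 0.657 CPM on day 14 and at most 0.281 CPM on day 6 (4.81 ± 1.13, adjusted p = 0.0412). Tcf7, a Wnt pathway factor of early lymphoid cells, had 34.4 ± 2.42 against 13.9 ± 5.29 CPM on day 14 and 2.46 ± 0.339 against 4.08 ± 2.06 CPM on day 6 (2.05 ± 0.47, adjusted p = 0.0412).

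These calls could end when 1 library was left out, in most cases any 1 of several. Where a call is said to hold only without some libraries, here and below, the 12 fits that leave out 1 library are meant. Without control 1 of day 6 the difference was not called for Smoc1 (adjusted p = 0.0595). It was not called for Zfp709 without any 1 of the 6 day 6 libraries (adjusted p 0.0517 to 0.165). For Eya1 it held only without BN1 3 of day 6 or control 1 or control 2 of day 14, with an adjusted p of 0.0591 to 0.123 without any 1 of the other 9, and with the replicate block it missed the threshold (adjusted p = 0.0522). For Tcf7 it held only without control 2 of day 6 or control 1 or control 2 of day 14 (adjusted p 0.061 to 0.12 otherwise). Bace1, a membrane protease, and Pcp4l1, a small protein related to Pcp4, were also gained upward, with differences of 2.66 ± 0.60 and 2.96 ± 0.67 (adjusted p = 0.0334 and 0.0422). The call for Bace1 held only without control 2 or BN1 1 of day 6 or without control 1, control 3 or BN1 1 of day 14 (adjusted p 0.0566 to 0.0851 otherwise). That for Pcp4l1 held only without control 2, control 3 or BN1 3 of day 6 (adjusted p 0.0544 to 0.118 otherwise).

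Downward, Dhrs4, a carbonyl reductase of peroxisomes, had 16.6 ± 0.773 against 24.6 ± 1.53 CPM in control and BN1 cells on day 6 and 21.3 ± 2.87 against 10.4 ± 2.92 CPM on day 14 (difference -1.60 ± 0.25, adjusted p = 0.00311). Its day 6 effect of 0.57 ± 0.18 was called with the replicate block (adjusted p = 0.0281), which makes it a reversed effect there. Pcx, pyruvate carboxylase, had 9.77 ± 3.00 against 12.2 ± 1.76 CPM on day 6 and 25.3 ± 7.12 against 9.52 ± 1.04 CPM on day 14 (-1.73 ± 0.35, adjusted p = 0.018). The call for Pcx ended without control 1, BN1 2 or BN1 3 of day 6 and without control 3 or BN1 2 of day 14 (adjusted p 0.0501 to 0.0559). Cdk5rap1, a mitochondrial transfer RNA modifier, differed by -1.71 ± 0.38 (adjusted p = 0.0337), which held only without control 1 of day 14 (adjusted p 0.0549 to 0.0965 otherwise). Nmi, an interferon-induced partner of STAT and Myc proteins, differed by -1.32 ± 0.31 (adjusted p = 0.0411), which held only without 1 of the 3 controls of day 14 (adjusted p 0.0528 to 0.105 otherwise). Over the 21 alternatives, the gained class held in 19 for Jag2, 17 for Ccnd1, 16 for Auts2, 13 for Zfp709, 12 for Bace1 and Dhrs4, 11 for Smoc1, 10 for Pcx, 9 for Eya1, 8 for Tcf7 and Cdk5rap1, 6 for Nmi and 4 for Pcp4l1.

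Among kept effects, that of Tnfrsf19 (chr14:60963875-61046490), a receptor of the tumour necrosis factor family, had nearly the same size on both days. It lay at 84.1, 37.2 and 71.9 CPM in control and at 219, 214 and 239.5 CPM in BN1 libraries on day 6, and at 31.2, 114 and 58.7 CPM in control and 212, 290.0 and 181 CPM in BN1 libraries on day 14. All BN1 libraries were above all control libraries on each day, with effects of 1.80 ± 0.43 and 1.74 ± 0.43 and a difference of -0.06 ± 0.60. Kdm5b (chr1:134560171-134635285), a demethylase of histone H3 lysine 4, was 6.48-fold higher in BN1 on day 6 and 4.92-fold higher on day 14, at 9.17, 6.57 and 8.88 against 67.6, 47.7 and 44.7 CPM and at 3.28, 4.43 and 10.3 against 13.7, 29.3 and 45.3 CPM in control and BN1 libraries (difference -0.40 ± 0.66). A difference that was not called does not show equal effects, and the errors of these differences allow sizeable ones.

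Gm10451, a long non-coding RNA, had 14.1 ± 2.34 against 0.573 ± 0.159 CPM in BN1 and control cells on day 6 and 2.20 ± 1.19 against 0.0410 ± 0.0710 CPM on day 14. The 2 control reads of day 14 put BN1 at 52.4 times control there, with a 95% counting interval of 14.2 to 438. Gria3, a glutamate receptor subunit, and Abcb4, a phospholipid transporter, were also kept upward, with effects of 2.78 ± 0.28 and 1.79 ± 0.29 and of 2.50 ± 0.49 and 1.87 ± 0.48 on day 6 and day 14. Zfp518b, a zinc finger gene, had 5.12 ± 0.63 and 2.30 ± 0.58. Its difference of -2.83 ± 0.87 was not called (adjusted p = 0.129), but was by DESeq2 and by edgeR without control 1 of day 6.

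Downward, Arhgap42, a GTPase-activating protein, had 4.11, 7.15 and 6.72 against 0.359, 0.632 and 0.341 CPM in control and BN1 libraries on day 6, and 1.52, 1.35 and 1.81 against 0.121, 0 and 0.247 CPM on day 14, with effects of -3.74 ± 0.50 and -3.59 ± 0.61 (difference 0.14). Myh10, a non-muscle myosin heavy chain, had 86.4, 149.9 and 102 against 31.6, 39.8 and 45.1 CPM and then 517, 205 and 237 against 106, 79.2 and 103 CPM, with effects of -1.54 ± 0.34 and -1.73 ± 0.34. The means of Myh10 were higher on day 14 in both kinds of cell while BN1 stayed below control. The semaphorin receptor subunit Plxna2 had effects of -3.30 ± 0.68 and -2.72 ± 0.44, and the integrin subunit Itgb3 of -1.73 ± 0.40 and -1.71 ± 0.40.

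D630039A03Rik had no read in BN1 cells on day 6, where control was at least 219.5-fold higher, and 0.631 ± 0.150 against 8.45 ± 3.58 CPM in BN1 and control cells on day 14. Its effect had 1 direction on both days and was smaller on day 14, as in 7 of the 84 kept genes (fitted difference 6.99, adjusted p = 0.00551). Over the 21 alternatives, the kept class held in 20 for Gm10451 and D630039A03Rik, in 17 for Gria3, Arhgap42 and Plxna2, in 11 for Kdm5b, in 8 for Abcb4, Zfp518b, Itgb3 and Myh10, and in 6 for Tnfrsf19.

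Among 37 gene lists with 510 tested genes, the difference between the days was called in 15 genes of 12 lists, 6 higher and 9 lower, beside 2.66% of all tested genes. The members included 9 lost, 4 kept, 4 gained and 2 reversed effects. The other 25 lists, with 351 tested genes, held 0 differences called by edgeR, 54 of those genes being at an unadjusted p under 0.05. DESeq2 called 14 of them, and edgeR with the replicate block called 17, in 12 of the 25 lists. The median difference over all tested genes was -0.03. The counts per list below stand beside these shares of all tested genes: 3.98% higher and 3.58% lower on day 6, and 2.08% higher and 2.82% lower on day 14. With the replicate block, 12.8% of all tested genes were called on day 6, 16.5% on day 14 and 4.93% for the difference, in either direction. DESeq2 called 1382 of the 12288 tested genes on day 6, 1771 on day 14 and 619 for the difference. Its counts per list stand beside these and are not read as an excess.

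Fatty acid oxidation genes had 4 such members of 22, and the 4 were split in direction: the effects of Acsf2 and Decr1 were lower on day 14 and those of Eci2 and Slc25a20 higher. Slc25a20, the carnitine-acylcarnitine carrier, had 22.4 ± 0.926 against 12.0 ± 0.884 CPM in control and BN1 cells on day 6 and 15.9 ± 2.23 against 16.9 ± 1.47 CPM on day 14 (difference 0.98 ± 0.19, adjusted p = 0.0122). Decr1, which reduces dienoyl-CoA, had 6.27 ± 0.488 against 11.3 ± 0.355 CPM and then 7.46 ± 0.984 against 6.16 ± 1.15 CPM (difference -1.13 ± 0.26, adjusted p = 0.0341). Its call held only without control 1 or BN1 3 of day 14 (adjusted p 0.0553 to 0.0959 otherwise). On day 14 edgeR called 0 genes of this list (3 at an unadjusted p under 0.05, and 1 called by DESeq2), and the median difference of the list was 0.02.

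Pfkp, a phosphofructokinase, was the 1 called member of 22 glycolysis and hypoxia genes. It lay at 14.5, 21.1 and 25.3 CPM in control and 2.41, 1.84 and 1.42 CPM in BN1 libraries on day 6 and at 16.6, 28.3 and 31.6 and 21.4, 12.9 and 35.9 CPM on day 14, where the groups overlapped (difference 3.29 ± 0.55, adjusted p = 0.00687). With the replicate block 2 genes of the list rose and 8 fell on day 6 and 11 fell on day 14, against 1 and 0 that fell without it. Over all tested genes the blocked fit called 12.8% on day 6 and 16.5% on day 14, in either direction.

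In the Hoxa cluster, 3 of 11 genes had enough counts to be tested. All 3, Hoxa5, Hoxa7 and Hoxa9, were higher in BN1 cells on day 6 and edgeR called 0 on day 14 (0 at an unadjusted p under 0.05). Their day 14 effects were 1.35, 0.88 and 0.95 on the log2 scale. The difference was called for Hoxa9, at -4.72 ± 0.98, and not for Hoxa7, at -3.09 ± 0.82 (adjusted p = 0.0806), or Hoxa5, at -4.17 ± 1.26 (adjusted p = 0.125), so these 3 neighbours are not shown to differ from each other. The difference for Hoxa7 was called by DESeq2 and without control 2 of day 14. Among 13 tested Hox cofactors and KMT2A-fusion target genes, 5 rose on day 6 and 2 on day 14. Meis1, a Hox cofactor, had 2.82 ± 1.00 against 15.5 ± 4.59 CPM in control and BN1 cells on day 6 and 0.474 ± 0.377 against 1.98 ± 1.10 CPM on day 14, with effects of 2.46 ± 0.47 and 2.07 ± 0.58 (adjusted p = 0.00698 and 0.0568). The day 14 effect of Meis1 was called with the replicate block (adjusted p = 0.0087), as a kept effect.

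Of 6 tested genes of a fetal progenitor list, Lin28b had a lost effect, Hmga2, an architectural chromatin protein, rose on day 6 (2.57; 1.44 on day 14, not called), and Igf2bp3 rose on day 14 (0.49; 0.23 on day 6, not called). Among 19 B-lineage transcription factors, 5 rose and 1 fell on day 6 and 1 rose on day 14, with no called difference. In the blocked fit 6 rose and 2 fell on day 6 and 7 rose on day 14, with 3 called differences. Foxo1, which supports Rag gene expression, was kept, at 222 ± 32.7 against 320.1 ± 45.5 CPM on day 6 and 197 ± 23.9 against 325 ± 34.6 CPM on day 14 in control and BN1 cells (effects 0.53 and 0.72). Pax5, the factor that commits cells to the B lineage, had effects of 0.51 ± 0.13 and 0.38 ± 0.13, of which the first was called and the second called with the replicate block (adjusted p = 0.0411). Ebf1, which acts with it, had 0.36 ± 0.20 and 0.37 ± 0.20, neither called. Spib fell on day 6 by 1.89 on the log2 scale and stood at 0.07 on day 14, with a difference of 1.96 that was not called (adjusted p = 0.119).

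Among 20 pro-B and pre-B cell genes, Ly6d, an antigen of B-committed progenitors, rose on day 6 (2.05), and Rag1 and Rag2, the recombinase of antigen receptor genes, rose on day 14 (1.86 and 1.27). No difference was called, with Ly6d closest at -2.30 (adjusted p = 0.0531; called with the replicate block, adjusted p = 0.00222). Rag1 had 989.5 ± 183 against 1855 ± 459 CPM in control and BN1 cells on day 6 and 347 ± 142 against 1259 ± 182 CPM on day 14. Of 12 tested T, NK and innate lymphoid genes, the effects of Lck and Tcf7 differed between the days, in opposite directions. Among 14 tested chemokines and homing receptors, 5 rose on day 6, while on day 14 Ccl9 rose and Cxcr5 fell. Ccl9, a chemokine of myeloid and progenitor cells, had 76.6 ± 47.6 against 81.1 ± 6.96 CPM on day 6 and 16.4 ± 6.58 against 103 ± 15.7 CPM on day 14, and its difference of 2.57 ± 0.61 was not called (adjusted p = 0.0609), but was by DESeq2, with all 18 libraries and without control 2 of day 6.

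Several lists had edgeR calls on day 14 and none on day 6, while that fit called no difference in them, so it shows no gain. Of 27 Myc and ribosome biogenesis genes, 10 fell on day 14, beside 2.82% of all tested genes. On day 6 edgeR called 0 (4 at an unadjusted p under 0.05, and 1 called by DESeq2). For the difference 0 were called (7 at an unadjusted p under 0.05, and 2 called by DESeq2). The median effect was -0.18 on day 6 and -0.78 on day 14, and the median difference -0.53. Nolc1, a nucleolar phosphoprotein, had effects of -0.16 and -1.11. Nop58, a core protein of the small nucleolar particles that methylate ribosomal RNA, had effects of -0.13 and -0.98. With the replicate block 19 fell on day 14, beside 16.5% of all tested genes called in either direction in that fit. The blocked difference was called for 4, Nop58, Gnl3, Nolc1 and Myc, beside 4.93% of all tested genes. Myc, the transcription factor that drives these genes, lay at 228, 250.1 and 172 CPM in control and 205, 238 and 169.7 CPM in BN1 libraries on day 6 and at 638, 205 and 376 and 238, 104 and 266 CPM on day 14. The day 14 groups overlapped, but in each numbered pair BN1 was lower (blocked difference -0.89 ± 0.21, adjusted p = 0.0392).

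Of 20 S phase genes, 7 fell on day 14, beside 2.82% of all tested genes. Mcm2 and Mcm5 of the replicative helicase were among the 7 (-0.48 and -0.46). On day 6 edgeR called 0 of the list (4 at an unadjusted p under 0.05, and 0 called by DESeq2). For the difference 0 were called (5 at an unadjusted p under 0.05, and 1 called by DESeq2), with a median of -0.23. Of 19 serine, glycine and one-carbon genes, 5 fell on day 14, beside the same 2.82% of all tested genes. On day 6 edgeR called 0 of them (4 at an unadjusted p under 0.05, and 2 called by DESeq2). For the difference 0 were called (6 at an unadjusted p under 0.05, and 1 called by DESeq2), and with the replicate block 1, that of Shmt1, a serine hydroxymethyltransferase (-0.77 ± 0.18, adjusted p = 0.0277), which was chosen after its values were seen. Gldc, the decarboxylase of glycine cleavage, had 34.8, 16.0 and 31.8 CPM in control and 0.727, 0.122 and 0.742 CPM in BN1 libraries on day 14, and at most 0.114 CPM in any day 6 library. The difference of -6.43 ± 2.45 was not called by edgeR (adjusted p = 0.257) and was called by DESeq2 (adjusted p = 0.004). Without control 1 of day 14, 0 S phase genes and 0 Myc and ribosome biogenesis genes were called on day 14, and 1 one-carbon gene in place of 5. That fit called only 72 genes in all on day 14, in place of 603, so these low counts are not particular to the lists. The medians of the first 2 lists were then -0.34 and -0.55, against -0.30 and -0.78 with all 12 libraries.

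**Figure D5:**
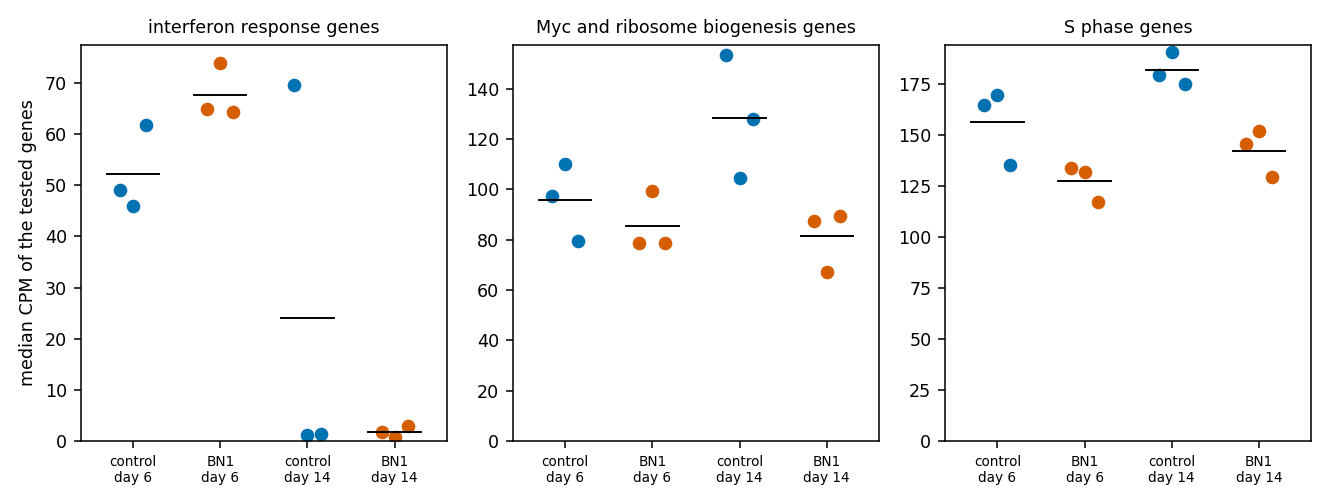
Median CPM of the tested genes of 3 lists (y axis) in each library of control (blue) and BN1 (orange) cells on each day (x axis), 1 point per library. Control 1 of day 14 stands at 69.4 CPM for interferon response genes, where the other 5 day 14 libraries stand at 0.915 to 2.91 CPM, and at 153 CPM for Myc and ribosome biogenesis genes, above the other 11 libraries.

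Interferon response genes set 1 library apart. Their median level was 45.9 to 73.8 CPM in the 6 day 6 libraries, 69.4 CPM in control 1 of day 14 and 0.915 to 2.91 CPM in the other 5 day 14 libraries. Of the 19 tested genes edgeR called 0 on day 6, on day 14 or for the difference. At an unadjusted p under 0.05 these counts were 0, 14 and 10, and DESeq2 called 0, 4 and 1. Without control 1 of day 14, 5 rose and 1 fell on day 6 and the difference was called as lower for 3, while the median difference of the list went from -2.88 to -0.12. Without that library 1272 day 6 effects and 392 differences were called over all genes, with 331 lost, 24 kept, 15 gained and 9 reversed effects. Its part in the classes was not tested beyond these counts.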

How the data were processed

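The deposited table holds expected counts per gene, which the authors made with STAR and RSEM on mm10, per the submitters' processing notes, which also name DESeq2. No source used here gives their versions or the library strand used in counting, so reads of overlapping genes on opposite strands may not be told apart. Between 1.74% and 2.12% of the deposited values per library were not whole. They were rounded to whole counts.

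The members and gene lists were chosen with earlier results of these data known. Genes were kept by filterByExpr, which left 12288 of 32285, and fitted in edgeR 4.0.16 (R 4.3.3; TMM, robust quasi-likelihood, 4 group means, 12 libraries, 8 residual degrees of freedom). Control and BN1 were compared on each day, day 14 with day 6 within each, and the difference of the 2 BN1 effects was the fifth contrast. A standard error is the log2 value divided by the root of its F statistic, which is unstable for a value near 0 in a gene with few reads, so none is given for the Arhgap42 difference. Tests were two-sided, with p-values adjusted by Benjamini and Hochberg over all tested genes and a threshold of 0.05. Intervals and floors (3 reads over a group) cover counting error only.

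Equal replicate numbers were taken as pairs because the correlation of every pair was over 0.1, and on day 14 libraries of 1 number also share a code in their labels. Deviations from the group means correlated at 0.149 to 0.342 on day 6 and 0.269 to 0.337 on day 14 between control and BN1 libraries of 1 number, and at -0.354 to 0.0911 and -0.312 to -0.00484 between different numbers. On day 6 the value of 0.149 for number 1 was close to the 0.0911 of control 1 with BN1 2. Because deviations are taken from the group means, positive values for equal numbers push those for different numbers down, so the ranges are not independent evidence of pairs. The fit with the number as a block within each day has 4 residual degrees of freedom.

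Named genes have a mean of at least 5 CPM in 1 group and the largest values per class and direction (6, or 4 in the blocked fit), beside 21 fixed genes and up to 4 called members of each list. Groups had to be apart on the days that placed the gene, or in the blocked fit each pair had to go 1 way. Some genes that this rule names are not reported here. Gene positions are from GENCODE M21 on mm10, which holds 32235 of the 32285 genes. Tested on simulated counts of 12288 genes with 150 changed between days, the fit recovered 89.3% of the 150. Of its 138 calls there, 2.90% were false. The simulated effects were all of 1 large size, in genes with many reads, with the same spread on both days and no pairs. Whether these rates hold for the real libraries, for small effects, or for genes with few reads in a group, was not tested. Alternatives were DESeq2 1.42.0, limma 3.58.1 voom with a spread per day, RLE scaling, no filter, all 18 libraries, the block, a threshold of 0.10 and libraries or pairs left out.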

Additional observations from a re-analysis of the deposited data

Results flagged for a closer look

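For 45 named genes the BN1 effect on day 14 differed from that on day 6 by the test of the difference itself (edgeR, adjusted p under 0.05), and they are listed here by class with that difference on the log2 scale, day 14 minus day 6. Since the day cannot be told apart from the experiment or the sex of the cells, the same holds for each of these differences.

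Among genes lost after being higher in BN1 on day 6, the difference was -8.64 for Gnb4, -6.30 for Lin28b, -6.17 for Car2, -6.06 for Tmem132e, -5.73 for Acsf2, -5.39 for Pafah1b3, -4.72 for Hoxa9, -3.13 for Cables1, -1.13 for Decr1 and -0.88 for Lck. With the replicate block Cables1, a linker of cyclin-dependent kinases, was a reversed effect. Its call ended without control 1 of day 6 (adjusted p = 0.0538).

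Among genes lost after being lower in BN1 on day 6, it was 9.70 for Zfp267, 7.86 for Eci2, 7.23 for Itm2a, 6.84 for AI661453, 6.80 for Nxt2, 5.63 for Card9, 3.29 for Pfkp and 0.98 for Slc25a20. D630039A03Rik, lower in BN1 on both days and less so on day 14, had 6.99.

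For reversed effects it was 7.46 for Dpp4, 7.43 for Steap4, 6.30 for Cysltr1, 4.83 for Emilin1, 4.83 for Rpgr, 4.52 for Cdc42bpg, -5.91 for Tenm4, -5.09 for Phf19, -4.91 for Zfp827, -4.24 for Cxcr5, -2.16 for Nme4 and -1.40 for Ivd. Of the reversed effects, 3 of 27 (11.1%) were X-linked genes, Cysltr1 and Rpgr among them, against 2.88% of all tested genes, and the part of the sex difference between the days in these was not tested.

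For gained effects it was 7.78 for Zfp709, 4.81 for Eya1, 4.74 for Smoc1, 3.02 for Auts2, 2.96 for Pcp4l1, 2.66 for Bace1, 2.05 for Tcf7 and 1.47 for Kit upward, and -5.97 for Ccnd1, -2.62 for Jag2, -1.73 for Pcx, -1.71 for Cdk5rap1, -1.60 for Dhrs4 and -1.32 for Nmi downward. Without the day 6 libraries numbered 3 the difference stayed called for 27 of the 45, and with limma voom for 36.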

How the results depend on the processing

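With the replicate block on both days 606 differences, 433 kept, 128 gained and 70 reversed effects, 1567 day 6 calls and 2025 day 14 calls were found, and with the block on day 14 alone 534, 278, 103, 55 and 1653 day 14 calls. DESeq2 gave 619 differences, 295 kept, 381 lost, 127 gained, 56 reversed and 1771 day 14 calls. With limma voom there were 3 kept, 5 gained and 1 reversed effects, 1632 day 6 and 12 day 14 calls, 292 lost effects and 319 differences. A lost effect needs a missing day 14 call, so with so few day 14 calls the number of lost effects does not show that the class is stable. An adjusted p under 0.10 gave 517 differences, 316 kept, 106 gained and 57 reversed effects.

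Without the day 6 libraries numbered 3 there were 180 differences, 140 lost, 11 gained, 13 reversed and 562 day 6 calls. Without the day 14 libraries numbered 1 there were 18 kept, 13 gained, 8 reversed and 49 day 14 calls. Leaving out 1 library at a time gave 219 (without BN1 1 of day 6) to 392 differences, 8 to 255 kept, 188 to 331 lost, 7 to 75 gained, 1 to 34 reversed effects, 507 (without BN1 1 of day 6) to 1272 day 6 calls and 34 to 1693 day 14 calls. With the block and without pair 1, 2 or 3 of day 6, there were 305, 390 and 363 differences, 135, 153 and 479 kept, 200, 232 and 227 lost, 51, 82 and 58 gained and 33, 51 and 50 reversed effects. Without pair 1, 2 or 3 of day 14, there were 661, 506 and 476 differences, 264, 374 and 284 kept, 470, 315 and 280 lost, 83, 113 and 124 gained and 43, 46 and 43 reversed effects. The cause of these shifts was not tested.

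All 18 libraries (373 differences), RLE scaling (333) and no filter (324) stayed within 1.5 times of 327. In the 21 alternative fits and the 6 blocked fits without 1 pair, none of the 327 differences changed sign. Since these fits reuse the libraries that chose the 327, this is no separate evidence. Counting intervals are wide for genes with few reads in a group, such as Nxt2 on day 6.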
